A study of Mus musculus with 6 samples.

Results

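The genes Pum2, Fmr1, Fxr1, Fxr2, Caprin1, G3bp1 and G3bp2 encode cytoplasmic RNA-binding proteins of the Pumilio, FMRP and stress granule families, and were followed in mouse breast carcinoma cells with lowered lamin A/C. They were taken by exact match of the gene symbol in the deposited count table, where all 7 were found among 10520 genes, and all 7 were among the 8969 genes with enough counts to be tested. E0771, a breast adenocarcinoma line of the C57BL/6 strain, carried either the empty pLKO.5-puro vector (shControl) or a vector with an shRNA that targets lamin A/C (shLmna). Both groups were transduced with lentivirus and selected with puromycin as pools of cells, and each had 3 libraries made by MARS-seq, a method that reads the 3' ends of polyadenylated RNA and counts each captured molecule once by its unique molecular identifier (UMI). The knockdown libraries are titled shRNA4, although shLmna is what their genotype and description give. The 7 genes were chosen by their family after the difference between these groups had been measured for Pum2 and Fmr1, which were selected on their fold changes in these same libraries. The values of those 2 are therefore given as a description, with no p.

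Pumilio proteins bind a short element, starting with UGUA, in the 3' untranslated regions of mRNAs and bring in the CCR4-NOT complex, which shortens the poly(A) tail, so that the bound mRNA is translated less and decays sooner. FMRP, the product of Fmr1 that is lost in fragile X syndrome, binds mRNAs on ribosomes and lowers their translation, and FXR1 and FXR2 are its close relatives. G3BP1 and G3BP2 drive the condensation of untranslated mRNA into stress granules when translation initiation stalls, and CAPRIN1 is a partner that binds both of them and also interacts with FMRP.

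The Pumilio element is shown because Pum2 mRNA itself carries it. A search for TGTANATA on the transcribed strand of the 3' untranslated region, in GENCODE release M21 transcripts on GRCm38 (mm10), found it in 3 of the 7 genes. Each site is written 5′ to 3′ with 11 bases on either side and the 8 bases of the element in capitals.
Pum2 site 1, chr12:8750154-8750183, plus strand: gtttatagagaTGTATATAgaattatagtt
Pum2 site 2, chr12:8750407-8750436, plus strand: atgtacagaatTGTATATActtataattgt
Fmr1 site 1, chrX:68717288-68717317, plus strand: gtttaaaatacTGTAGATAattaaccaagg
Fmr1 site 2, chrX:68717349-68717378, plus strand: gcaatattctcTGTACATAttagcgacaac
G3bp2 site, chr5:92052680-92052709, minus strand: gtgtatatgtgTGTAAATAtttcacacaac
The letters were not found in the searched 3' untranslated regions of Fxr1, Fxr2, Caprin1 and G3bp1. Each gene was searched in a chosen transcript up to its RefSeq end. The search thus stopped at 55500888 in G3bp1 and 34069980 in Fxr1, upstream of their last GENCODE ends at 55504838 and 34070322. Over all genes of the table with a matched transcript, 16.9% of 10467 windows of the last 1000 transcript bases (or the whole transcript where shorter) held the element. Both Fmr1 sites and the G3bp2 site lie within that window, while the Pum2 sites lie upstream of it. A match is a run of letters and does not show binding.

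The libraries held between 1846208 and 3242051 UMIs, and any 2 replicates of a group differed beyond counting noise (chi-square over its degrees of freedom, 5.52 to 9.02). Nothing in the labels says that the replicates came from separate cultures, so p-values measure the spread between these libraries only. The shControl libraries had plate positions 13 to 15 and the shLmna libraries positions 16 to 18, so that position and group cannot be told apart. Lmna, the targeted gene, had 2066, 2794 and 1764 UMIs in shControl and 1035, 1023 and 713 in shLmna, and fell by 1.20 on the log2 scale (SE 0.13, edgeR quasi-likelihood test, adjusted p = 3.55e-05). Of the 12 mammary epithelial markers searched, 6 were in the table, led by Krt8 with 516 to 814 UMIs (log2 fold change 0.074), while Cdh1 and Krt19 were not among its genes. None of the 5 that were tested passed, with values of -0.90 for Epcam (edgeR adjusted p = 0.0909), -1.18 for Krt14 (0.0772), -0.53 for Krt18 and 0.37 for Erbb2. The summed markers of the other cell types lay between 15.3 and 17.3 UMI counts per 1000000 (CPM) in shControl and 18.4 and 24.4 in shLmna for leukocytes (2 of 7 in the table), and between 18.6 and 18.8 and 27.2 and 30.8 for fibroblasts (4 of 6). The one endothelial marker in the table, Pecam1, had 2 to 7 UMIs in each library.

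A pair of libraries stood apart. Shared by shControl replicate 3 and shLmna replicate 2 were high counts of the melanocyte genes Mlana, Pmel, Tyrp1 and Dct, at 205 to 450 UMIs in the former and 306 to 499 in the latter, against 0 to 8 in the other 4 libraries. These 4 of the 5 melanocyte markers searched were in the table, and their sum ranged from 2.19 to 718.4 CPM in shControl and from 0.375 to 580.8 in shLmna. The labels give E0771 for all 6. Each of the 7 genes is therefore given with and without these libraries, a choice made after seeing the data, and the part of this RNA in the differences was not tested beyond that.

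Among the 7 genes, the levels of Pum2 and Fmr1 were many times higher in the lamin A/C knockdown cells and those of the other 5 had log2 fold changes between -0.34 and 0.45, none past the test. A gene was called, after the study's methods, if its adjusted p was below 0.05, its mean normalized count over 5 and its log2 fold change beyond 1 in size. By this rule 2 of the 7 were called higher and 0 lower, in a comparison where 5.71% of all tested genes were called, 3.97% higher and 1.74% lower. The adjusted p alone was passed by the same 2 genes and by 13.7% of all tested genes. Both genes were also called after a correction for GC content described below, where 5.73% of genes were called, and without the pair of libraries, where 6.16% were. Because the genes were proposed from this contrast, nothing is read from these counts. In bulk RNA, fewer cells expressing a gene and less of its RNA in each cell cannot be told apart.

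**Figure D1:**
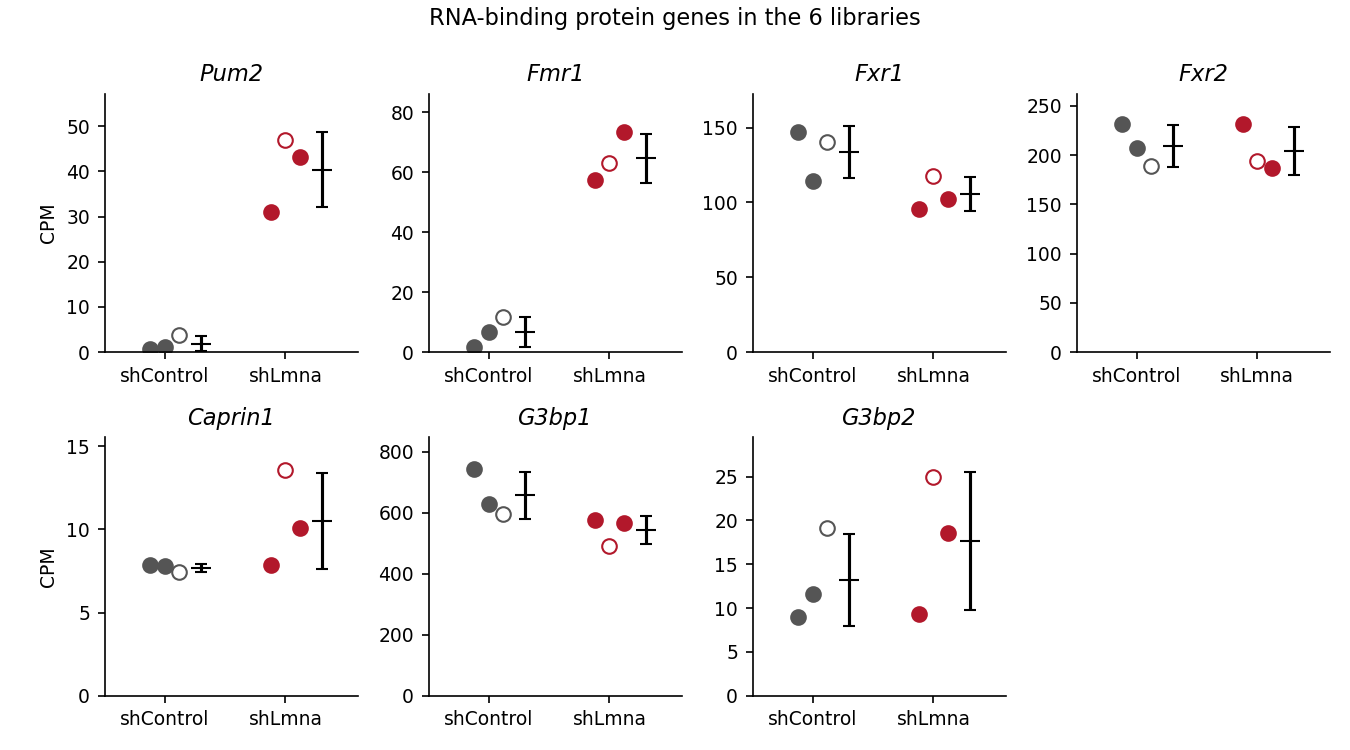
UMI counts per 1000000 (CPM, scaled by TMM factors, linear axis from 0) of the 7 genes in each shControl (grey) and shLmna (red) library, with the mean and SD of each group in black. Open symbols mark the pair of libraries with melanocyte RNA. Pum2 lies at 0.784 to 3.71 in shControl and 31.1 to 47.0 in shLmna, and Fmr1 at 1.57 to 11.7 and 57.3 to 73.4.

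Pum2, the Pumilio repressor, lies on the plus strand of chromosome 12 from 8674134 to 8752581. Replicates 1, 2 and 3 of shControl gave 2, 4 and 7 UMIs of Pum2, and those of shLmna gave 83, 128 and 81. All shControl libraries were low and all shLmna libraries high, with no overlap. The level was 1.92 ± 1.57 CPM (SD, n = 3) in shControl against 40.4 ± 8.28 (SD, n = 3) in shLmna, a log2 fold change of 4.51 (SE 0.37) or 22.8-fold. The shControl value rests on 13 UMIs in all, and the highest of its libraries is the one with melanocyte RNA. Without the pair of libraries the log2 fold change was 5.08 (SE 0.42), or 33.7-fold. The transcripts of Pum2 end at 5 annotated positions between 8750001 and 8752581, of which 3 lie upstream of the window from 8751562 to 8752561 used here for the counted end. Molecules ending there would not fall into a window at the last end. The last 1000 bases of Pum2 shared no exact run of 25 or more bases with another gene's transcripts.

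Fmr1, which encodes FMRP, lies on the plus strand of chromosome X from 68678541 to 68717963. Its libraries gave 4, 22 and 22 UMIs in shControl and 153, 172 and 138 in shLmna, and the groups did not overlap. With shControl replicate 1 under the count minimum, Fmr1 needed shLmna libraries to enter the test. The level was 6.71 ± 5.05 CPM (SD, n = 3) in shControl against 64.6 ± 8.12 (SD, n = 3) in shLmna, a log2 fold change of 3.33 (SE 0.35) or 10.0-fold. The shControl libraries were spread from 1.57 to 11.7 CPM, in the same order as for Pum2. Without the pair of libraries the log2 fold change was 3.85 (SE 0.35), or 14.4-fold. All annotated transcripts of Fmr1 used here end at the same position. Whether some of its molecules end upstream of that position was not tested.

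The autosomal relatives of Fmr1 had more UMIs per counted stretch and did not pass the test. Fxr1, on chromosome 3 from 34019943 to 34070322, had 375, 365 and 265 UMIs in shControl and 255, 321 and 193 in shLmna. The level was 133.9 ± 17.5 CPM (SD, n = 3) in shControl against 105.3 ± 11.4 (SD, n = 3) in shLmna, with a log2 fold change of -0.34 (SE 0.15, 95% confidence interval -0.67 to -0.012, edgeR adjusted p = 0.161), and the groups overlapped. Without the pair of libraries it was -0.39 (edgeR adjusted p = 0.166). Its counted end shares a run of 73 bases with the transcript of Gm17795, so a part of its count is uncertain.

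Fxr2, on chromosome 11 from 69632990 to 69653297, had 591, 661 and 357 UMIs in shControl and 618, 529 and 351 in shLmna. The level was 209.3 ± 21.3 CPM (SD, n = 3) in shControl against 204.2 ± 24.1 (SD, n = 3) for shLmna, with a log2 fold change of -0.036 (SE 0.14, edgeR adjusted p = 0.905). Its 95% confidence interval, from -0.34 to 0.27, leaves room for a difference of that size in either direction, and without the pair of libraries the value was -0.061 (edgeR adjusted p = 0.861). Fxr2 was the most abundant of the family in every library.

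Since the 3 genes are counted over stretches of equal length at the 3' end, their UMIs can be set side by side within a library, where library scaling plays no part. Their counted ends differ in GC content, at 29.7% for Fmr1, 35.4% for Fxr1 and 56.9% for Fxr2. Neither the shares nor the summed levels were corrected for it. Within the family, Fmr1 held 0.412, 2.10 and 3.42% of the UMIs in shControl and 14.9, 16.8 and 20.2% in shLmna. These shares describe a gene chosen for its difference between the groups. The share of Fxr1 was 38.2 ± 3.18% and 28.2 ± 3.28%, and that of Fxr2 59.8 ± 3.94% and 54.5 ± 4.98% (SD, n = 3 each). The 3 genes together came to 349.9 ± 27.3 CPM in shControl and 374.1 ± 10.97 in shLmna (SD, n = 3 each), and these sums overlapped between the groups.

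**Figure D2:**
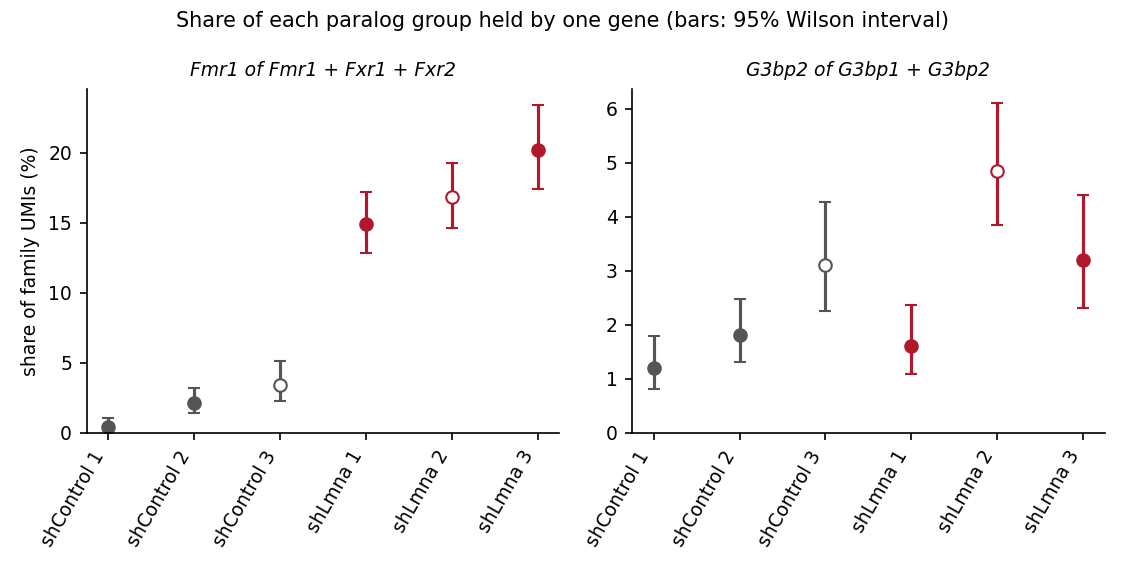
Share of the UMIs of a paralog group that belonged to Fmr1 (of Fmr1, Fxr1 and Fxr2) and G3bp2 (of G3bp1 and G3bp2), in percent on linear axes from 0, for each shControl (grey) and shLmna (red) library, with 95% Wilson intervals that cover counting error only. Open symbols mark the pair of libraries with melanocyte RNA. The Fmr1 share lies at 0.412 to 3.42% in shControl and 14.9 to 20.2% in shLmna, and the G3bp2 shares of the groups overlap.

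The stress granule genes did not pass the test in either direction. G3bp1, the most abundant of the 7 genes, lies on chromosome 11 from 55469685 to 55504838 and had 1899, 2014 and 1124 UMIs in shControl and 1534, 1334 and 1062 in shLmna. The level was 656.9 ± 77.9 CPM (SD, n = 3) in shControl against 543.1 ± 46.5 (SD, n = 3) in shLmna, and each shLmna library lay below each shControl library. The log2 fold change was -0.28 (SE 0.14, 95% confidence interval -0.58 to 0.025, edgeR adjusted p = 0.218), and -0.27 without the pair of libraries (edgeR adjusted p = 0.307). In all, the groups did not overlap for 4 of the 7 genes (Pum2, Fmr1, Caprin1 and G3bp1), against 32.5% of all tested genes. Pum2 and Fmr1 were selected for their difference between these groups, so nothing is read from this count. Of the counted end of G3bp1, 117 bases are shared with transcripts of 14 other genes, on either strand, in runs of up to 52 bases. The longest run matches the opposite strand of the Gm13346 transcript. Its annotated end was also farther downstream in GENCODE than in RefSeq, and the RefSeq end was used.

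G3bp2, on chromosome 5 from 92052146 to 92083719, had 23, 37 and 36 UMIs in shControl and 25, 68 and 35 in shLmna. The level was 13.2 ± 5.24 CPM (SD, n = 3) in shControl against 17.6 ± 7.84 (SD, n = 3) in shLmna, with a log2 fold change of 0.45 (SE 0.35, 95% confidence interval -0.29 to 1.19, edgeR adjusted p = 0.425). The highest library of each group was the one with melanocyte RNA, and without that pair the value was 0.38 (edgeR adjusted p = 0.528). Its counted end overlaps Gm26582 on the opposite strand, and whether the counting used strand is not given in the sources used here. G3bp1 made up 98.0 ± 0.97% of the UMIs of G3bp1 and G3bp2 in shControl and 96.8 ± 1.62% in shLmna (SD, n = 3 each), a difference that did not pass a two-sided exact permutation test (p = 0.4, where 0.1 is the smallest that 3 libraries against 3 allow).

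Caprin1, on chromosome 2 from 103762941 to 103797649, was among the rarest, with 20, 25 and 14 UMIs in shControl and 21, 37 and 19 in shLmna. The level was 7.70 ± 0.23 CPM (SD, n = 3) in shControl against 10.5 ± 2.88 (SD, n = 3) in shLmna. The groups were separated by a narrow gap, from 7.84 in the highest shControl library to 7.87 in the lowest shLmna library. The log2 fold change was 0.45 (SE 0.30, 95% confidence interval -0.19 to 1.09, edgeR adjusted p = 0.353), and 0.18 without the pair of libraries (edgeR adjusted p = 0.802).

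The base composition of the counted 3' ends differed among the 7 genes, and the libraries differed in the share of UMIs in GC-poor ends. The last 1000 bases held 29.7% GC in Fmr1, 35.4% in Fxr1, 36.0% in G3bp2, 36.3% in Caprin1, 40.0% in Pum2, 40.5% in G3bp1 and 56.9% in Fxr2, against a median of 47.4% over 10467 genes. Only 0.269% of the tested genes had a GC content below that of Fmr1, and 18.7% one below that of Pum2. Of 471 tested genes under 35% GC, 21.0% were called higher, with a median log2 fold change of 0.46. Pum2 lies at the border between 1197 genes from 35 to 40%, of which 7.94% were called higher with a median of 0.13, and 1800 genes from 40 to 45%, of which 2.39% were called higher with a median of -0.012. The windows at 2 upstream ends of Pum2 lie in the lower of these ranges, 1 of them at 36.6% GC. Across 8932 genes, which are not independent replicates, log2 fold change and GC content had a Pearson's r of -0.20. Genes under 40% GC took 5.82, 6.54 and 7.51% of the UMIs of shControl replicates 1, 2 and 3, against 6.78, 8.14 and 7.85% for shLmna. The order of the shControl libraries was the same for this share as for Pum2 and Fmr1. In shLmna the order was the same for Pum2 but not for Fmr1. There the share was highest in replicate 2, while Fmr1 was highest in replicate 3, at 73.4 CPM. The part of this share in the differences was not tested.

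After a correction for GC content in each library the log2 fold change was 4.40 for Pum2 (SE 0.34, 21.1-fold) and 2.51 for Fmr1 (SE 0.28, 5.69-fold). It was -0.058 for Fxr2, 0.060 for Caprin1 and 0.054 for G3bp2, with edgeR adjusted p-values of 0.80, 0.916 and 0.928. For G3bp1 it was -0.37 (edgeR adjusted p = 0.12). Fxr1 passed the test after the correction, with a log2 fold change of -0.81 (SE 0.17, edgeR adjusted p = 0.0039), without reaching the fold criterion, in a comparison where 16.9% of the genes passed and 8.74% passed and were lower. The annotated ends of Fxr1 range from 44.8% to 32.6% GC in their last 1000 bases, and with the most upstream end setting the GC content the log2 fold change was -0.30 (edgeR adjusted p = 0.192). G3bp2, with 4 annotated ends, was likewise at 0.50 in place of 0.054 with its most upstream end. The corrected values of Fxr1 and G3bp2 thus depend on which 3' end the molecules carried, which the counts do not show.

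**Figure D3:**
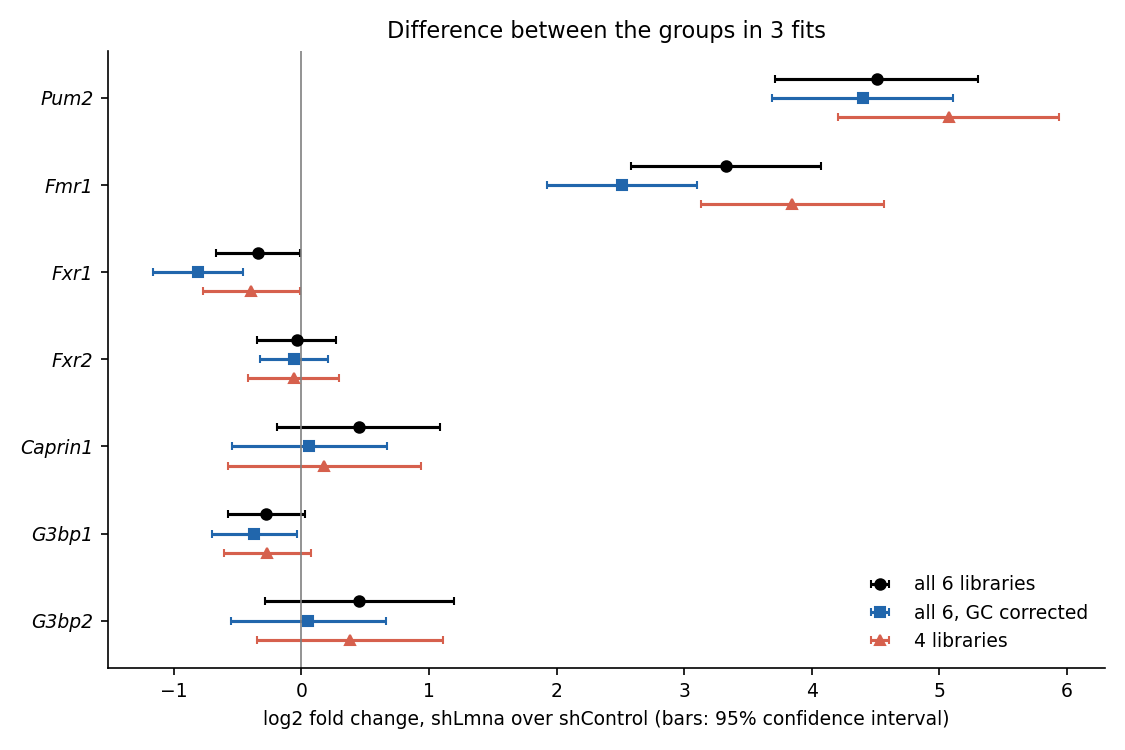
Log2 fold change of shLmna over shControl with approximate 95% confidence intervals for the 7 genes, from edgeR fits. Black circles show all 6 libraries, and blue squares show all 6 after the GC correction. Red triangles show the 4 libraries with few UMIs of the melanocyte genes. The values of Pum2 and Fmr1 lie between 2.51 and 5.08, and those of the other genes between -0.81 and 0.45.

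**Figure D4:**
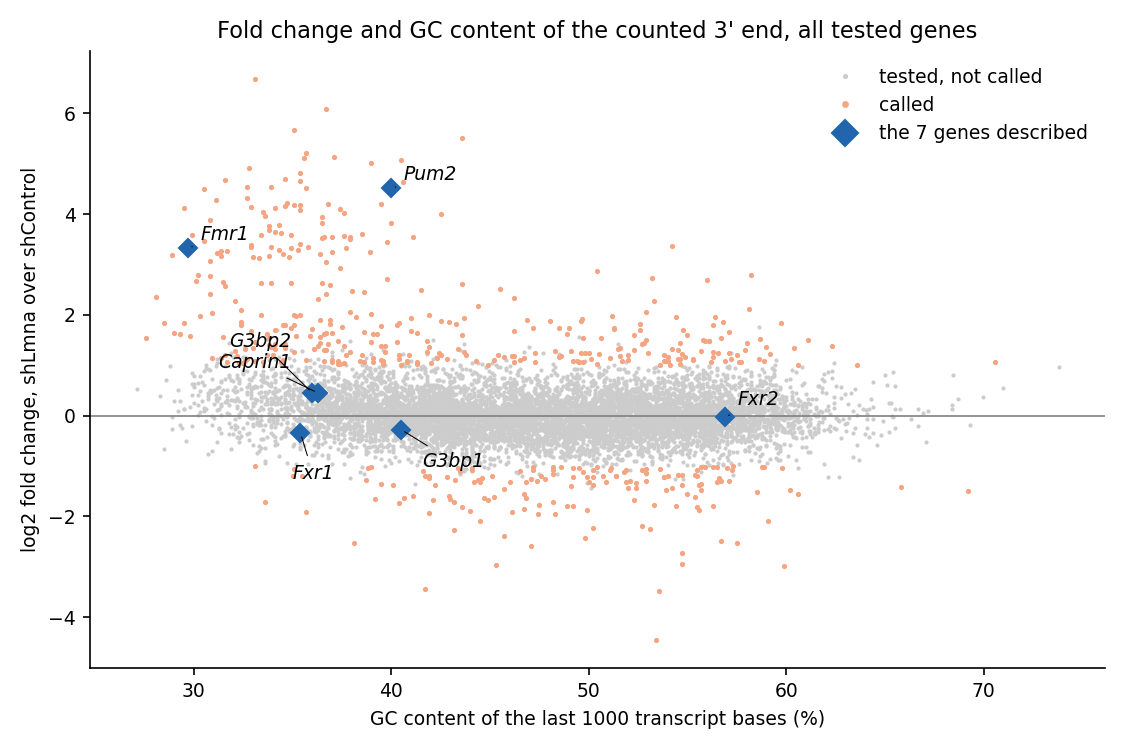
Log2 fold change of shLmna over shControl against the GC content of the last 1000 transcript bases, in percent, for 8932 tested genes, with called genes in orange and the 7 genes described here as blue diamonds. Fmr1 lies at 29.7% GC, where many called genes are higher, and Pum2 at 40.0%.

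The genes that work with these proteins were described by lists that do not share a gene with each other. Counts are over tested genes, and the median log2 fold change over all tested genes was 0.0033. For each count of calls below, the share over all tested genes was 3.97% higher and 1.74% lower. The lists were written with earlier results of these data known, so nothing is read from these counts. Of 14 tested genes of the Pumilio, Nanos and CCR4-NOT list, 2 were called higher and 0 lower, with a median of 0.031. Besides Pum2 this was Cnot7, a catalytic deadenylase subunit of CCR4-NOT, with 34, 76 and 69 UMIs in shControl and 121, 179 and 103 in shLmna. It rose by 1.20 on the log2 scale (edgeR adjusted p = 0.00957), and by 0.67 after the GC correction (edgeR adjusted p = 0.0303), under the fold criterion. Tob1, an antiproliferative adaptor of CCR4-NOT, was not called at -0.35 (edgeR adjusted p = 0.51) but was called lower after the correction, at -1.06 (edgeR adjusted p = 0.00603). It is named because of these values. With the correction the list thus had 1 call in each direction and a median of -0.091. Pum2 aside, the 13 other genes of the list had a median of 0.025 before the correction.

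Of the 9 tested genes of the FMRP family and its partners, 2 were called higher and 0 lower, with a median of 0.14. Besides Fmr1 this was Mov10, an RNA helicase and FMRP partner, with 81, 118 and 52 UMIs in shControl and 220, 164 and 119 in shLmna. Mov10 rose by 1.09 (edgeR adjusted p = 0.00155), its counted end holds 54.0% GC, and the GC-corrected value was 1.11 (edgeR adjusted p = 0.000459).

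Of 27 tested genes of the stress granule list, 2 were called higher and 1 lower, with a median of 0.012. Ddx3x, a DEAD-box RNA helicase of stress granules, had 4, 4 and 10 UMIs in shControl and 83, 83 and 62 in shLmna, and rose by 3.68 (SE 0.36, edgeR adjusted p = 1.33e-05), or by 3.13 after the GC correction (edgeR adjusted p = 1.47e-05). Its shControl library with the most UMIs was again the one with melanocyte RNA, and without that pair the value was 4.48. That library was also the only one of shControl in which Ddx3x reached the count minimum, so the gene entered the test through shLmna. Fam120a rose by 1.06 (edgeR adjusted p = 0.00607), and by 0.77 after the GC correction (edgeR adjusted p = 0.0155), under the fold criterion. Caprin2, the paralog of Caprin1, fell by 1.03 (edgeR adjusted p = 0.0368) from 37, 33 and 23 UMIs to 13, 15 and 15. This call was lost without the pair of libraries, where the log2 fold change was -0.97 (edgeR adjusted p = 0.0948). After the GC correction Caprin2 passed the test (edgeR adjusted p = 0.0323) but not the fold criterion.

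Of 21 tested P-body and mRNA decay genes, 0 were called, with a median of 0.0060. Of these, 2 passed the test alone and were lower, where 5.78% of all tested genes did: Edc4 at -0.95 (edgeR adjusted p = 0.000846) and Edc3 at -0.82 (edgeR adjusted p = 0.0303). Both encode enhancers of mRNA decapping and were chosen for naming after their values were seen. Pabpc1 of the stress granule list, at -0.55 (edgeR adjusted p = 0.0426), passed in the same way, as did Celf1 at -0.63 and Zfp36 at -0.73 among the proteins that bind 3' untranslated regions. Of 18 tested genes for other proteins that bind 3' untranslated regions, 3 were called higher and 0 lower, with a median of 0.12. Qk, which encodes the STAR-family protein Quaking, had 0, 1 and 4 UMIs in shControl and 26, 50 and 25 in shLmna, with a log2 fold change of 4.28 (SE 0.59, edgeR adjusted p = 0.000276). Ythdf3, a reader of N6-methyladenosine, had 1, 2 and 4 UMIs in shControl and 22, 22 and 23 in shLmna, with a log2 fold change of 3.27 (SE 0.50, edgeR adjusted p = 0.000625). Qk, Ythdf3 and Pum2 stayed under the count minimum in every shControl library and entered the test only through shLmna, so that any call of theirs had to be higher. Ddx3x and Cpeb4, each with 4, 4 and 10 UMIs in shControl, reached that minimum there only in replicate 3. Both thus also entered through shLmna, and the same limit holds for their calls. Fmr1, with 4, 22 and 22 UMIs in shControl, stayed under the minimum in replicate 1 and also needed shLmna libraries to enter the test. After the GC correction the log2 fold change was 3.54 for Qk (edgeR adjusted p = 0.000467) and 2.55 for Ythdf3 (edgeR adjusted p = 0.00227). Cpeb4, which binds cytoplasmic polyadenylation elements, rose by 1.83 (edgeR adjusted p = 0.0208), a call that was lost after the GC correction (log2 fold change 0.93, edgeR adjusted p = 0.146). Without the pair of libraries the log2 fold change was 5.68 for Qk, 4.15 for Ythdf3 and 2.26 for Cpeb4. The counted ends of these 3 genes held 31.1, 31.4 and 28.5% GC, in the range of Fmr1. Of all tested genes under 35% GC, 21.0% were called higher. The medians of the 5 lists lay between 0.0060 and 0.14.

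**Figure D5:**
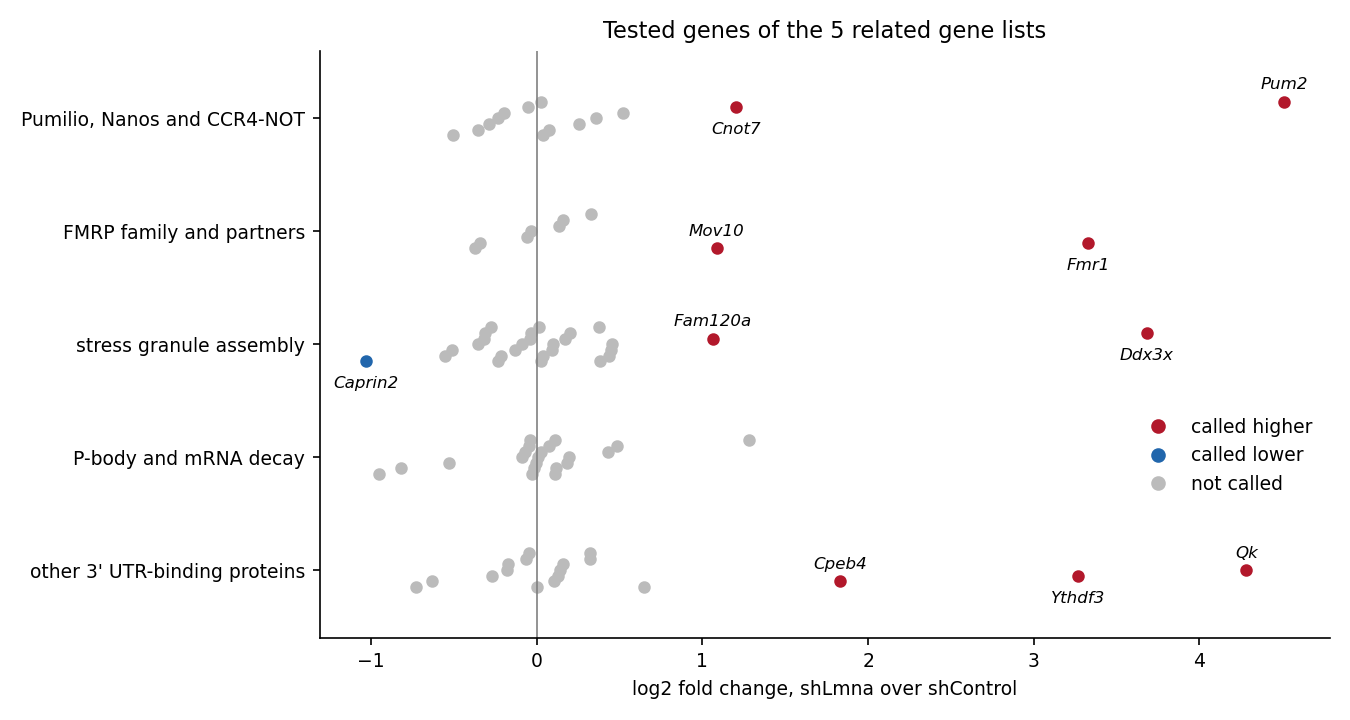
Log2 fold change of shLmna over shControl for the tested genes of 5 lists of related RNA-binding and mRNA decay proteins, one line of points per list (small vertical offsets only separate the points), with genes called higher in red, lower in blue and not called in grey. Pum2, Fmr1, Ddx3x, Qk and Ythdf3 lie above 3, and most other points lie between -1 and 1.

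Genes that carry the Pumilio element were set beside those that do not, among tested genes with a full window of 1000 bases. The 1498 genes with TGTANATA had a median log2 fold change of 0.051 and 6.81% of them were called higher, against -0.0047 and 3.59% for the 6798 genes without it. In single libraries, the median deviation of genes with the element minus that of the others was -0.094, -0.022 and 0.022 in shControl. It was -0.0095, 0.080 and 0.049 in shLmna, so the groups overlapped, with a pooled within-group SD of 0.052. The genes with the element are poorer in GC, with a median of 42.4% against 48.1%. After the GC correction the medians were -0.046 and -0.032, so that their order turned, while 4.81% of the genes with the element and 3.32% of those without it were called higher, in the order found before.

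Over the 6 libraries, the genes whose log2 values followed Pum2 most closely were Nipa2 (Pearson's r = 0.998), Kat2b (0.998) and Auh (0.996). For Fmr1 they were Tmem37 (0.999), Hnrnpll (0.998) and Smim13 (0.997), and Pum2 and Fmr1 had an r of 0.971 with each other. These values describe likeness over 6 points that share their libraries and fall into the study's groups, and many genes reach a high r over so few points. Pum2 and Fmr1 were selected for their difference between these groups, so nothing is read from the r values. In shControl, Nipa2 and Kat2b averaged 0.458 CPM each and Smim13 0.948 CPM. These genes, too, entered the test only through shLmna. Nipa2, Kat2b, Hnrnpll and Smim13 have counted ends of 35.7, 34.7, 29.0 and 39.8% GC, while Auh and Tmem37 lie at 48.2 and 54.9%.

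Of the tested genes within 250000 bases of the 7 genes, 4 were called, where 5.71% of all tested genes were. The counts near each gene are small, and nothing is read from them. Rhob, 174125 bases from Pum2 and encoding a small GTPase, fell by 1.66 (edgeR adjusted p = 3.76e-06) and was the only one called of the 4 tested near Pum2. Near Fxr2, 2 of 20 tested genes were called, Kctd11 at -1.08 (edgeR adjusted p = 0.00526) and Tnfsf12 at 1.01 (edgeR adjusted p = 0.0055). Sparc, which encodes a secreted matrix glycoprotein and lies 46502 bases from G3bp1, rose by 1.69 (edgeR adjusted p = 0.00231). It was the only one called of the 3 tested near G3bp1. Without the pair of libraries Sparc was at 2.28, and the call of Tnfsf12 was lost at 0.93 (edgeR adjusted p = 0.0207). No gene near Fmr1 was tested, and none near Fxr1, Caprin1 or G3bp2 was called among the 1, 2 and 6 tested.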

How the data were processed

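RNA of 3 shControl and 3 shLmna libraries was counted by the authors, who trimmed reads with Cutadapt, mapped them to mm10 with STAR 2.4.2a and counted UMIs with HTSeq over each RefSeq gene's last 1000 bases plus 100 further downstream. The deposited counts are whole numbers without normalization. The authors also deposited log2 values corrected with ComBat, used here as values only, and a DESeq2 comparison (mean, fold change, p-values), which was not used.

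Counts were fitted in R 4.3.3 with edgeR 4.0.16 (filterByExpr with a minimum count of 10, TMM factors, quasi-likelihood test, Benjamini-Hochberg adjustment over 8969 genes, no replicate block). The SE and 95% confidence intervals of these fits are approximate, derived from the F statistic of the test and a t quantile. DESeq2 1.42.0 was an alternative. CPM values use TMM-scaled totals. The GC correction fitted a loess curve of span 0.3 and degree 2 per library over 8932 genes. Transcripts of GENCODE release M21, with ends clipped to RefSeq, were matched to 10467 genes, 322 through an older symbol. Shared runs were searched with blastn 2.17.0. Scripts were tested on simulated counts. Python 3.11.15 with pandas 2.3.3, numpy 2.4.6, scipy 1.17.1 and matplotlib 3.10.9 made the summaries and figures.

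The named genes are Lmna, the 7 genes, at most 4 called genes per list and direction, the 3 genes most like Pum2 and Fmr1, and called neighbours. Outside this rule, Edc3, Edc4, Tob1, Pabpc1, Celf1, Zfp36 and the cell type markers are named. Some results are not reported here. Members and lists were chosen with earlier results of these data known. Groups and replicate numbers came from the labels. The numbers 1 to 3 mark nothing shared in the labels, and the deviations of same-numbered libraries correlated at 0.32, -0.11 and 0.017, so the samples were not treated as paired.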

Additional observations from a re-analysis of the deposited data

How the results depend on the processing

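In all 18 alternatives 2 of the 7 genes were called, both higher, where between 2.7 and 7.13% of all tested genes were called. These were Pum2 and Fmr1, which were selected on their fold changes in these same libraries, so nothing is read from this count. With libraries left out singly, the log2 fold change lay between 4.15 and 5.20 for Pum2 (the highest without shControl replicate 3), 2.84 and 3.83 for Fmr1, -0.45 and -0.28 for Fxr1, -0.15 and 0.032 for Fxr2, 0.20 and 0.62 for Caprin1, -0.35 and -0.19 for G3bp1 and 0.078 and 0.76 for G3bp2, and none of the last 5 passed the test. Fxr1 passed after the GC correction (-0.81), with the correction and the replicate block (-0.79, edgeR adjusted p = 0.00626) and with the correction without shControl replicate 3 and shLmna replicate 2 (-0.93, edgeR adjusted p = 0.0013), and in no other alternative. Its adjusted p ranged from 0.0013 to 0.369. The replicate block left 363 genes called higher and 155 lower, against 356 and 156, and the numbers share only a number. It changed no call of the 7 genes.

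A mean count of at least 50 left 158 called genes, 112 higher and 46 lower, and did not test Caprin1 and G3bp2. Lower calls ranged from 92, without shControl replicate 2, to 192 with a library left out, and higher calls from 254 to 462. Without the pair of libraries with melanocyte RNA 1 P-body gene was called (Edc4, log2 fold change -1.03). After the GC correction 1 stress granule gene was called in place of 3. The median of genes with the Pumilio element exceeded that of the others by 0.056, by 0.018 to 0.084 with a library left out, and the difference turned to -0.014 after the GC correction and to -0.030 with the correction and without the pair. Few UMIs limit Pum2 in shControl, Caprin1 and G3bp2, and the causes of these shifts were not tested.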

Other observations

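The authors' ComBat-corrected log2 values, which enter no comparison above, gave Pum2 5.78, 5.79 and 5.94 for shControl, in replicate order, against 7.09, 7.18 and 7.10 for shLmna. Fmr1 had 6.05, 6.29 and 6.40, and 7.65, 7.53 and 7.57. The differences of the means, 1.29 for Pum2 and 1.34 for Fmr1, come from the same libraries by which these genes were chosen and are no independent evidence. They are smaller than the log2 fold changes of 4.51 and 3.33 above and cannot be set beside them. Low counts lie at high values on this scale, with Pum2 at 5.78 to 5.94 for 2, 4 and 7 UMIs in shControl. The other differences were -0.21 for Fxr1, -0.021 for Fxr2, 0.11 for Caprin1, -0.19 for G3bp1 and 0.11 for G3bp2.

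Among markers of other cell types, Lyz2, which encodes lysozyme of myeloid cells, had 10, 23 and 13 UMIs in shControl and 42, 35 and 29 in shLmna (log2 fold change 1.28, edgeR adjusted p = 0.011). Cd68, the other leukocyte marker in the table, had 34, 26 and 17 UMIs and 23, 15 and 10 (log2 fold change -0.62, edgeR adjusted p = 0.234). Of the fibroblast markers tested, Pdgfrb rose by 0.74 (edgeR adjusted p = 0.0457) and Pdgfra was at 0.039 (edgeR adjusted p = 0.958).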
